A study of Homo sapiens with 6 samples.

Results

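The RNAs described here are the small nucleolar and Cajal body RNAs detected in HEK293 cells labelled as deleted for CASP8AP2 by CRISPR and in their parental line. Members were selected by gene symbol, SNORA, SNORD or SCARNA followed by a digit, and by a summed abundance that reached 0.1 in one group or both. The table named 443 such genes among 56794, 72 of them stood above 0, and 59 reached the threshold. They were grouped by symbol into 29 of 142 box H/ACA RNAs, 18 of 277 box C/D RNAs and 12 of 24 Cajal body RNAs. The group means that chose the members are also the values compared, so what follows on the members is a description without a test.

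RNA was sequenced from 3 libraries labelled CASP8AP2 mutant and 3 labelled parental. Both lines are HEK293, a human embryonic kidney line, and both express luciferase, and the mutant line is labelled as lacking CASP8AP2. CASP8AP2, also called FLASH, works in the 3' end processing of histone pre-mRNA and sits in nuclear bodies that often lie beside Cajal bodies. The sources used here do not say whether the mutant line is 1 clone or a pool. They do not tie the 3 libraries of a group to separate cultures either, so p-values measure only the spread between these libraries, which may be technical. Levels were deposited as group means. Abundance below is that mean without the 1 the authors had added. It is scaled to RNA length and to a library total of 496162, and a gene's value is the sum over its transcripts. Log2 ratios set mutant over parental, with 1 added on each side.

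Small nucleolar RNAs are short guides that sit in a protein particle and base pair with ribosomal RNA. Box C/D RNAs direct methylation of the ribose, and box H/ACA RNAs direct the change of uridine to pseudouridine. Cajal body RNAs carry the same boxes singly or together and direct both changes on the small nuclear RNAs of the spliceosome. In human cells most of these RNAs are cut out of the introns of other genes, while a few, such as U3, have promoters of their own.

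As a check of the lines, CASP8AP2 transcripts averaged 15.7 in mutant and 15.9 in parental libraries (p = 0.375 in the authors' deposited table). This level does not bear out a loss of the RNA, and the files do not show which bases of the gene are deleted, so mutant and parental are used below as the labels give them. Of the 5 genes used to mark HEK293 cells, NEFL stood at 434 in mutant against 35.7 in parental libraries, NEFM at 0.0690 in mutant against 8.63 in parental libraries, and INA was listed at 0 in mutant libraries against 6.11 in parental ones. PAX2 and LIN28B were measured in both groups. Among markers of other cells PTPRC, CD34 and KRT5 were under 0.1 in both groups, ALB was at 0.205 in mutant and 0.150 in parental libraries, and COL1A1, of fibroblasts, was at 5.82 in mutant and 2.17 in parental libraries. In RNA from whole cultures, fewer cells that hold an RNA and less of it per cell cannot be told apart.

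Reads in single libraries could be worked back from the group means and the deposited p-values, and this shows how little RNA the values rest on. The mutant libraries held an estimated 57.4, 15.0 and 13.3 M reads (M, 1000000 reads) and the parental ones 15.3, 11.6 and 9.18 M. Together these were 85.7 M against 36.1 M, a 2.38-fold difference in depth. They are called deepest, middle and shallowest below, because their replicate numbers are not known. For an RNA of 130 bases, 1 read alone gave a group mean of 0.0361, 0.138 or 0.156 in the deepest, middle or shallowest mutant library, and of 0.136, 0.179 or 0.226 in the parental counterparts. At that length the threshold of 0.1 is reached by 1 read in any library but the deepest mutant one. The longest RNA that reaches it on 1 read was 46.9 bases in the deepest mutant library, 180 and 203 in the other mutant ones, and 176, 233 and 294 in the parental ones. At the threshold, SNORA74C-1 at 0.101 and SNORD14A at 0.103 in mutant libraries were just inside on 1 and 2 reads. SNORD3J at 0.0946 and SCARNA6 at 0.0855 were just outside, also on 1 and 2 reads, and all 4 were at 0 in parental libraries.

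Longer RNAs were detected more often than short ones. For detected members, length was that of the most abundant transcript. For SNORD3B-1, SNORD3B-2, SNORA59B and SNORA71B this was 758, 791, 701 and 272 bases. A shorter transcript of each has 217, 217, 152 and 134 bases. Of genes up to 100 bases long 2.87% were detected, 7 of 244, against 22.0% of those of 101 to 200 bases, 37 of 168, and 57.7% of the longer ones, 15 of 26. The last 15 held 69.3% of the summed abundance in mutant and 79.4% in parental libraries. Detected members had a median length of 136 bases, against 86 for the rest, and a median GC content of 48.7% against 43.5%. Class make-up moved with this, since box C/D RNAs are the shortest class and the least often detected. Within box H/ACA RNAs the medians were nearly equal, 136 bases detected and 133 not, against 104 and 81 bases for box C/D and 228.5 and 137.5 for Cajal body RNAs. The imprinted box C/D clusters were not detected, and the reason was not tested. All 9 SNORD113, 30 SNORD114, 48 SNORD115 and 30 SNORD116 genes in the table were at 0 in both groups.

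In counts and sums the 3 classes were close to balanced between mutant and parental libraries once SCARNA9 was set apart. This balance does not show equal levels, since few reads stood behind most members. Of the 59, 8 reached 1 in either group, and the added 1 draws the log2 ratios of the rest toward 0. With 0.1 added instead, medians were -0.06 for box H/ACA, 0.68 for box C/D and -0.14 for Cajal body RNAs. Over all 59 members 31 were higher and 28 lower in mutant libraries, with a median log2 ratio of 0.06 and quartiles of -0.21 and 0.23. The 22534 genes of the whole table at the same threshold had a median of 0.00, quartiles of -0.21 and 0.20, and 50.2% higher in mutant libraries. Box H/ACA RNAs divided into 14 higher and 15 lower with a median of -0.03, box C/D RNAs into 11 and 7 with 0.19, and Cajal body RNAs into 6 and 6 with -0.10. Their summed abundances were 6.98 in mutant and 7.18 in parental libraries for box H/ACA, 12.5 in mutant and 10.6 in parental libraries for box C/D, and 9.14 in mutant and 23.2 in parental libraries for Cajal body RNAs. Without SCARNA9 the Cajal body sums were 4.91 in mutant and 4.47 in parental libraries. The class then divided into 6 higher and 5 lower, with a median of 0.06. Over members with whole reads, leaving out the shallowest parental library took the parental sum to 12.1, against 20.6 with it, for Cajal body RNAs, and to 1.08, against 2.52, for box C/D RNAs. In the box C/D class 9 of the 18 were at 0 in parental libraries, and 2 had more than 3 whole reads, SNORD15B and SNORD17, both with log2 ratios below 0.

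No member carried a small p-value. The authors' deposited table gave p under 0.05 to 0 of the members' 67 tested transcripts, against 5.79% of all 140552 transcripts tested. After adjustment it was again 0, against 0.0221%. The smallest p in the authors' deposited table was 0.0901, for a transcript of SNORD3B-2 (adjusted p 0.703). For 23 of them the p in the authors' deposited table was 0.374, the value that reads in 1 library of 6 always give. Because the members were chosen on the same group means, nothing is read from these shares.

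**Figure D1:**
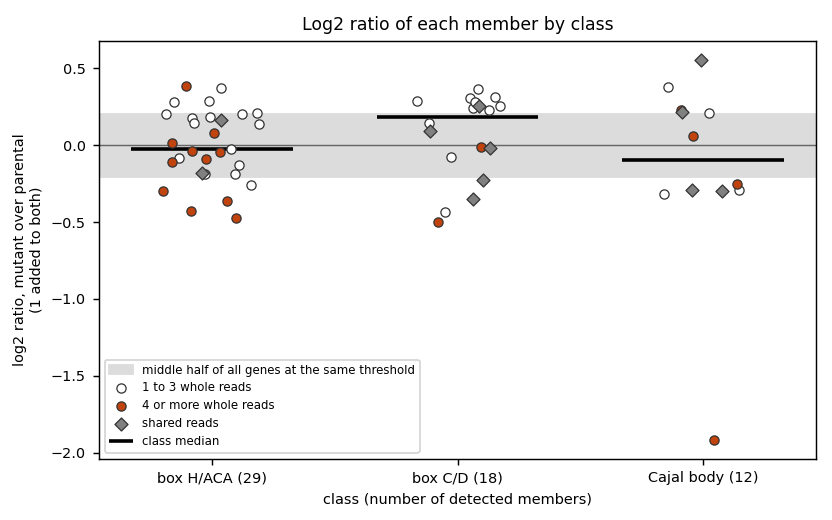
Log2 ratio of each detected RNA, mutant over parental with 1 added to both, in the 3 classes (29, 18 and 12 members). Bars are class medians (-0.03, 0.19 and -0.10), the grey band spans the quartiles of all 22534 genes at the same threshold, open circles rest on 1 to 3 whole reads, and SCARNA9 at -1.91 lies far below every other member.

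Whole reads in each library were recovered for 48 of the 59 members, 27 of them box H/ACA, 13 box C/D and 8 Cajal body RNAs. These 48 held 691 reads in all, 336 in mutant and 355 in parental libraries, and without SCARNA9 167 in mutant and 81 in parental libraries. The median member had 3 reads over the 6 libraries. A single read stood behind 18 members, 2 or 3 reads behind 13 more, and more than 10 behind 7. Reads were present in all 6 libraries for 4 members, SCARNA9, SCARNA22, SNORD17 and SNORA71B, and in both groups for 25. In 0 of the 48 did every mutant library lie above or every one below all parental libraries. Of the 20 members at 0 in parental libraries, 17 had their reads in 1 mutant library alone. Of the 48, 3 had reads in parental libraries only. The lower depth of the parental libraries moves with that asymmetry, and its part in it was not tested.

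One mutant library supplied many of the single reads. The shallowest mutant library held the only read of 11 members, the middle mutant one that of 4, the shallowest parental one that of 3, and the other 3 libraries none. Rates in RPM (reads for each M of the library) cover members with whole reads, which leaves out SNORD3A, and SCARNA9 was left out too. They were 1.64, 2.13 and 3.09 in the deepest, middle and shallowest mutant library, and 1.63, 2.24 and 3.27 in the parental ones. On these reads the 2 groups spanned nearly the same range, and in each the shallowest library had the highest rate. The threshold favours a read in a shallow library. Over all RNAs of the 3 classes with whole reads, with no threshold and again without SCARNA9, the rates were 1.83, 2.27 and 3.09 RPM in mutant libraries. In parental libraries they were 1.70, 2.24 and 3.27 RPM.

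**Figure D2:**
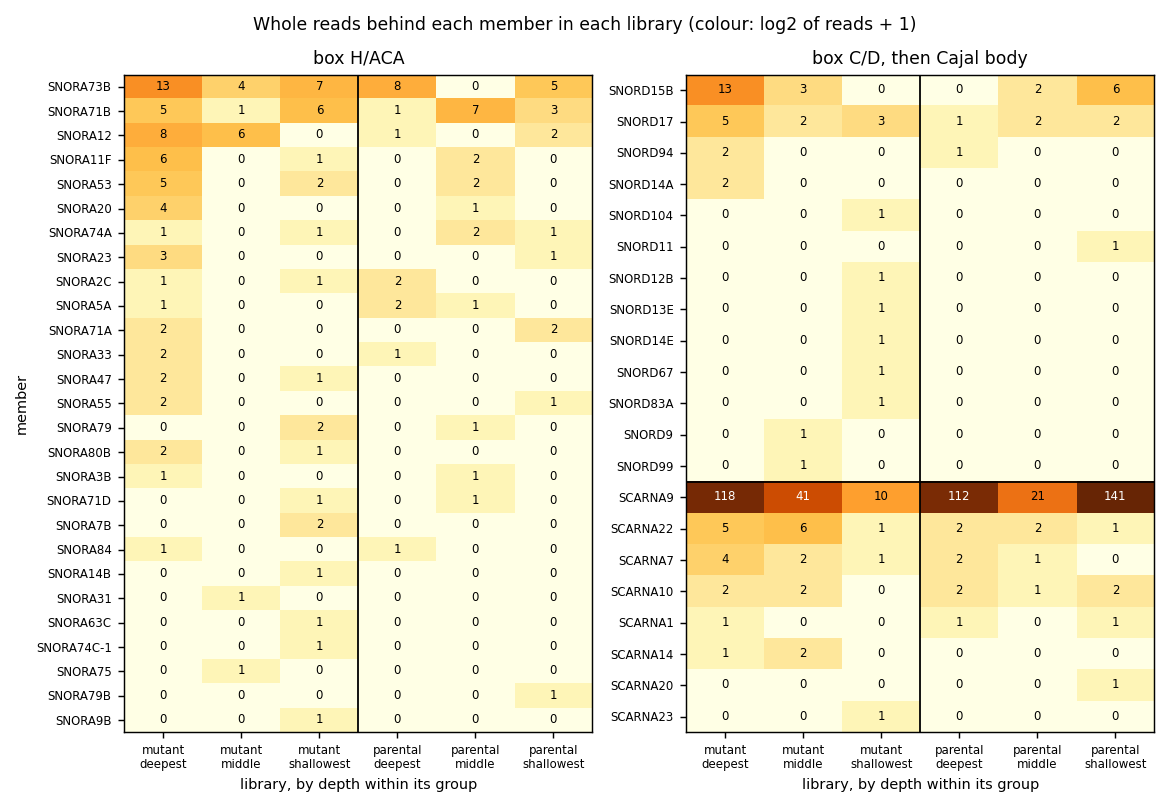
Whole reads in each library for the 48 members that could be worked back to reads, with mutant libraries left of the line and parental ones right of it. SCARNA9 has 10 to 141 reads in every library, SNORA73B reaches 13, and most other cells are 0 or 1.

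SCARNA9 was the most abundant Cajal body RNA and the member with the largest difference between the groups. It is a guide with box C/D motifs for methylation of the U2 small nuclear RNA, 353 bases long, at chr11:93721513-93721865 on the plus strand of hg38, inside an intron of CEP295. Bases 1 to 300 are shown because this RNA holds most of the whole reads recovered here. Capitals mark the first TGATGA, the C box motif, and a stretch of alternating g and t follows further on.
SCARNA9: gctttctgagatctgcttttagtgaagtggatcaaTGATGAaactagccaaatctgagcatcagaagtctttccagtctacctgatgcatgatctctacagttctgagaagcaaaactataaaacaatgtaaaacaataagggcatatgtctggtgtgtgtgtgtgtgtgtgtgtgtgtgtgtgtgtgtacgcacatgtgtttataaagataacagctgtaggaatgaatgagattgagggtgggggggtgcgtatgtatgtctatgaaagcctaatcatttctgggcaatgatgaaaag

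Its reads numbered 118, 41 and 10 in the deepest, middle and shallowest mutant library, and 112, 21 and 141 in the parental ones. Scaled to depth these were abundances of 4.70, 6.26 and 1.72 in mutant libraries and 16.8, 4.15 and 35.2 in parental ones, with means of 4.23 ± 2.31 in mutant and 18.7 ± 15.6 in parental libraries (SD, n = 3 each). The parental deepest and shallowest libraries stood above all 3 mutant libraries, but the parental middle library lay below 2 of them, so the groups overlapped. The log2 ratio was -1.91, with p = 0.154 in the authors' deposited table. Without the shallowest parental library it was -1.13, and without each of the other libraries in turn it lay between -2.37 and -1.60. Of the reads on members with whole reads, SNORD3A not among them, SCARNA9 made up 55.7%, 56.2% and 19.6% in mutant libraries. In parental libraries it made up 81.8%, 44.7% and 82.5%. Its host CEP295, a centriole protein gene, stood at 8.62 in mutant and 7.75 in parental libraries, a log2 ratio of 0.14 (p = 0.499 in the authors' deposited table).

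**Figure D3:**
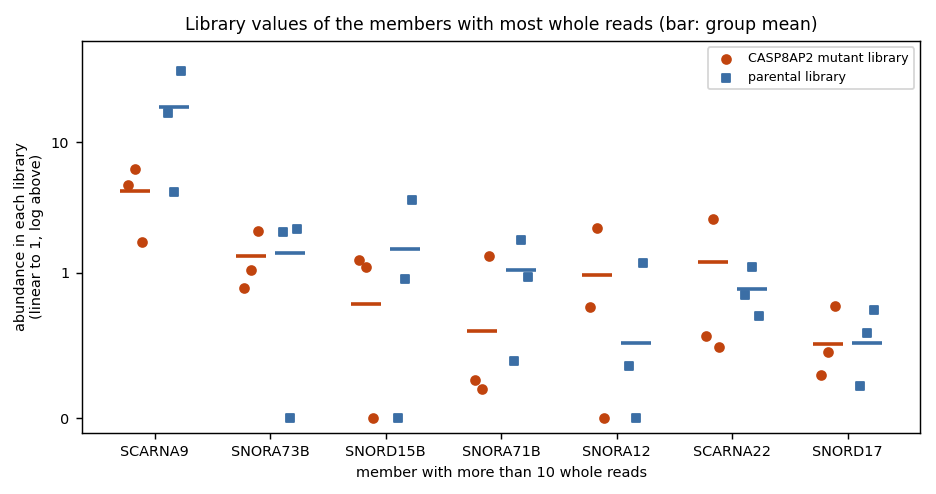
Abundance in each library for the 7 members with more than 10 whole reads, mutant libraries (circles) left of parental ones (squares), bars at the group means. SCARNA9 has the widest gap between means, 4.23 in mutant and 18.7 in parental libraries, and in all 7 the libraries of the 2 groups overlap.

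SCARNA22 and SCARNA13 are shown next because they carry the H/ACA box, the ACA 3 bases from the 3' end, which capitals mark. That motif was found in 6 of the 12 detected Cajal body RNAs, and TGATGA followed by CTGA in 5, among them SCARNA9. In all 24 Cajal body RNAs in the table these shares were 54.2% and 33.3%. The letters TGAG, the core of a box that some Cajal body RNAs are known to carry, occurred in 9 of the 12, against 70.8% of all 24. They were searched anywhere in the RNA, so a match of such a short word need not be that box. SCARNA22 lies at chr4:1974636-1974760 on the plus strand in NSD2, and SCARNA13 at chr14:95533355-95533629 on the minus strand in SNHG10.
SCARNA22: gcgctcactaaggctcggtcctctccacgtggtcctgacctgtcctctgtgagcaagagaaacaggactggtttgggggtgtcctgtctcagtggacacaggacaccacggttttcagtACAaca
SCARNA13: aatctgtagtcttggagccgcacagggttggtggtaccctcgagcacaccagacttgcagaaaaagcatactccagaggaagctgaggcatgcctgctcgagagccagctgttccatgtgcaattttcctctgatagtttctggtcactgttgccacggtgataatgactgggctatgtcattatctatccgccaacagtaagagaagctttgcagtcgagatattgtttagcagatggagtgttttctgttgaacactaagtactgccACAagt

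SCARNA22, also called ACA11 and known for its host gene NSD2, had 5, 6 and 1 reads in the deepest, middle and shallowest mutant library, and 2, 2 and 1 in the parental ones. Its abundance was 1.21 ± 1.19 in mutant and 0.890 ± 0.209 in parental libraries (SD, n = 3 each), with a log2 ratio of 0.23. The middle mutant library at 2.59 was the highest, and the other mutant libraries, 0.563 and 0.487, were below all 3 parental ones. SCARNA13, a guide for U2 and U5 small nuclear RNA, averaged 1.31 in mutant and 0.574 in parental libraries. Its log2 ratio of 0.56 was the highest of all members (p = 0.431 in the authors' deposited table). An exon of GLRX5 overlaps SCARNA13 on the opposite strand, and its reads did not come down to whole numbers. The sources used here do not say whether counting used strand, and without it reads of the 2 genes cannot be told apart.

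The remaining Cajal body RNAs named here pointed both ways. SCARNA12, inside PHB2 and over one of its exons, averaged 0.900 in mutant and 1.33 in parental libraries. SCARNA2, a U2 guide with a promoter of its own, averaged 0.636 in mutant and 0.405 in parental libraries. SCARNA10, a guide for U5, had 2, 2 and 0 reads in mutant and 2, 1 and 2 in parental libraries, with abundances of 0.137 ± 0.169 in mutant and 0.355 ± 0.164 in parental libraries (SD, n = 3 each). Here too the groups overlapped, since the middle mutant library lay above the deepest and middle parental ones. Reads of SCARNA14 and SCARNA23 were present in mutant libraries only, and the 1 read of SCARNA20 in a parental library.

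Box C/D RNAs were led by U3. SNORD3A encodes U3, which base pairs with ribosomal RNA precursors during early cleavage rather than guiding a methylation. It is shown with SNORD17, which had more than 10 whole reads and the most even values, and with SNORD104, a short one that rests on 1 read. Capitals mark the first TGATGA and the last CTGA, the C and D boxes. They were searched on the RNA strand in that order, and 16 of the 18 detected box C/D RNAs held both, against 193 of 257 not detected. The positions of the RNAs shown are, on hg38, chr17:19188016-19188232 (plus), chr20:17962710-17962946 (minus) and chr17:64146083-64146152 (plus).
SNORD3A: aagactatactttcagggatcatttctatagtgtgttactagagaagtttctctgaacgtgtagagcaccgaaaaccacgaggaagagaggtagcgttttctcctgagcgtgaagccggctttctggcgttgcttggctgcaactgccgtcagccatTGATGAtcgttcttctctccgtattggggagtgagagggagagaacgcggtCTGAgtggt
SNORD17: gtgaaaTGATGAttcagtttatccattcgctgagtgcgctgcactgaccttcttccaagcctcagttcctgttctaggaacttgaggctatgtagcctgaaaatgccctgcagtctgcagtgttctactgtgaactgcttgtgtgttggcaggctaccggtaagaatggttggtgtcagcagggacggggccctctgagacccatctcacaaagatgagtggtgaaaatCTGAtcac
SNORD104: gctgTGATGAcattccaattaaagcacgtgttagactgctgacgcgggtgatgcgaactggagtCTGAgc

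SNORD3A averaged 8.60 in mutant and 7.05 in parental libraries, a log2 ratio of 0.26, and p for its most abundant transcript was 0.580 in the authors' deposited table. Its copies SNORD3B-1 and SNORD3B-2 differ from it in 1 base, with 216 of 217 identical, so their reads are shared and the split between the 3 genes is uncertain. SNORD3B-1 stood at 0.278 in mutant and 0.198 in parental libraries, and SNORD3B-2 at 0.341 in mutant and 0.359 in parental libraries. U3 thus made up most of the box C/D sum in both groups, and without SNORD3A the sums were 3.88 in mutant and 3.56 in parental libraries.

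SNORD15B, a methylation guide for large-subunit ribosomal RNA, had 13, 3 and 0 reads in the deepest, middle and shallowest mutant library, and 0, 2 and 6 in the parental ones. Abundances were 1.25, 1.11 and 0 in mutant libraries and 0, 0.957 and 3.62 in parental ones, with means of 0.787 ± 0.685 in mutant and 1.53 ± 1.88 in parental libraries (SD, n = 3 each). Each group had 1 library without a read, and the parental mean came mainly from its shallowest library. The log2 ratio was -0.50. Its host RPS3, a ribosomal protein gene, pointed the other way, at 2165 in mutant and 1573 in parental libraries (p = 0.00817, adjusted p 0.544 in the authors' deposited table). SNORD17, inside SNX5, was the most even member. It had 5, 2 and 3 reads in mutant and 1, 2 and 2 in parental libraries. Its means were 0.507 ± 0.241 in mutant and 0.519 ± 0.267 in parental libraries (SD, n = 3 each), a log2 ratio of -0.01.

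Most other box C/D RNAs were single reads. SNORD104, inside SNHG25, had 1 read in the shallowest mutant library and none in parental libraries, a group mean of 0.290 in mutant and 0 in parental libraries. SNORD11, inside NOP58, had no read in mutant libraries and 1 in the shallowest parental one, a group mean of 0 in mutant and 0.350 in parental libraries. At such counts neither a difference nor its absence was detectable. SNORD13, which guides acetylation of small-subunit ribosomal RNA and is its own gene, was at 0 in mutant and 0.276 in parental libraries, with reads in 1 library. An exon of TTI2 overlaps SNORD13 on the opposite strand, and its reads did not come down to whole numbers. SNORD118, the U8 RNA of large-subunit processing, was listed at 0 in both groups.

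Box H/ACA RNAs formed the largest class of detected members, with nearly equal sums in the groups. SNORA73B, SNORA12 and SNORA5A are shown because they hold the most reads of the class, the highest mutant excess and the lowest log2 ratio. Capitals mark the ACA 3 bases from the 3' end. It was found in 19 of the 29 detected box H/ACA RNAs, 65.5%, against 77.3% of those not detected. The positions of the RNAs shown are, on hg38, chr1:28508559-28508762 (plus), chr10:100237156-100237302 (minus) and chr7:45104349-45104482 (minus).
SNORA73B: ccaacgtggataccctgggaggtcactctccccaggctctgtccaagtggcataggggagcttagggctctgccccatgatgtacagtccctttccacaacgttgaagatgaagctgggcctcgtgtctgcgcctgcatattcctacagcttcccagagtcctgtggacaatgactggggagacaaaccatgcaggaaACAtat
SNORA12: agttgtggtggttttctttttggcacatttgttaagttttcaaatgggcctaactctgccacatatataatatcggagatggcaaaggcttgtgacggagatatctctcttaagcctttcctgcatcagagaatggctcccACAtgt
SNORA5A: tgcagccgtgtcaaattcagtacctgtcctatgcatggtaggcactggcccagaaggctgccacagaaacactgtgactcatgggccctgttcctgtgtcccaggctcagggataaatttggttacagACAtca

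SNORA73B is a copy of U17, which acts in the cleavage of ribosomal RNA precursors, and lies in RCC1. It had 13, 4 and 7 reads in the deepest, middle and shallowest mutant library, and 8, 0 and 5 in the parental ones. Its abundances were 0.897, 1.06 and 2.09 in mutant and 2.07, 0 and 2.16 in parental libraries, with means of 1.35 ± 0.647 in mutant and 1.41 ± 1.22 in parental libraries (SD, n = 3 each). The means nearly coincided although 1 parental library had no read, and the log2 ratio was -0.04. SNORA12, inside CWF19L1, had 8, 6 and 0 reads in mutant and 1, 0 and 2 in parental libraries. Its means were 0.989 ± 1.12 in mutant and 0.520 ± 0.615 in parental libraries (SD, n = 3 each), a log2 ratio of 0.39, the highest of the class. Again each group held 1 library at 0.

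SNORA5A, inside TBRG4, had 1, 0 and 0 reads in mutant and 2, 1 and 0 in parental libraries. Its group means were 0.0350 ± 0.0606 in mutant and 0.437 ± 0.401 in parental libraries (SD, n = 3 each), a log2 ratio of -0.47. In plain counts this was 1 read in mutant and 3 in parental libraries, and p was 0.164 in the authors' deposited table. The SNORA71 RNAs, guides of small-subunit ribosomal RNA, come from the introns of SNHG17. SNORA71B had 5, 1 and 6 reads in mutant and 1, 7 and 3 in parental libraries, with means of 0.600 ± 0.644 in mutant and 1.05 ± 0.705 in parental libraries (SD, n = 3 each). The groups overlapped. SNORA71A had 2 reads in 1 library of each group. SNORA71D, with 1 read in each group, was at 0.151 in mutant and 0.174 in parental libraries. SNORA71A shares 113 of 134 bases with SNORA71B and with SNORA71D. SNHG17 itself was at 36.4 in mutant and 65.9 in parental libraries (p = 0.218 in the authors' deposited table), so host and all 3 RNAs lay on the same side. SNORA51, inside NOP56 and over one of its exons, averaged 0.233 in mutant and 0.399 in parental libraries.

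**Figure D4:**
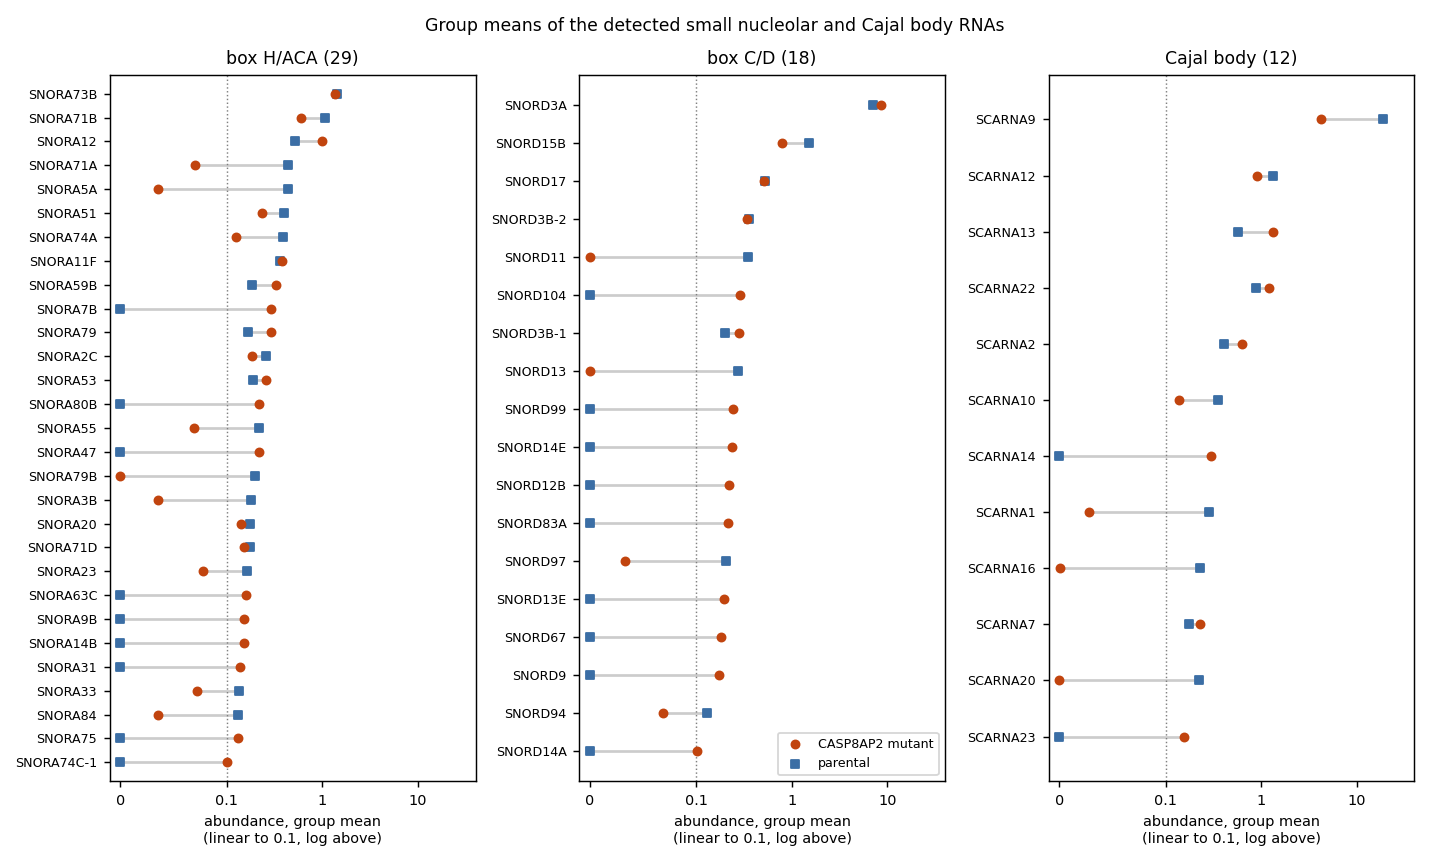
Group mean abundance of each of the 59 members by class, circles for mutant and squares for parental libraries, on an axis that is linear to 0.1 and logarithmic above. Most members lie between 0.1 and 1 in their higher group, 4 are at 0 in mutant and 20 at 0 in parental libraries, and SCARNA9 shows the widest separation among the abundant ones.

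Members lay on the same side as the genes that hold them about as often as not. Of the 59, 54 lay on the same strand inside a gene, in 52 hosts, 45 of them protein coding. A host here is the most abundant gene around a member on its strand, which need not be the gene the RNA is cut from. Member and host lay on the same side in 28 cases and on opposite sides in 26. Of the 48 members with whole reads, 18 rest on a single read and 31 on 3 reads or fewer. A member's side is then set by very few reads, so this split cannot show whether members follow their hosts. Hosts had a median abundance of 39.2 in mutant and 44.0 in parental libraries, far above their members. When both groups were added, 2 members exceeded their host, SCARNA9 and SCARNA2. SCARNA2 has a promoter of its own, and its host by this rule, AL356488.2, is a non-coding gene with an exon over it. The authors' deposited table gave p under 0.05 to 9 hosts, each with 1 member, against 12.5% of all genes at the same threshold. Of these, 5 were higher and 4 lower in mutant libraries, against 5.26% and 7.23% of all genes. After adjustment it was 0 hosts, against 0.0444%. RPS3, RPL3, RPL27A, IPO7 and SEC14L1 were the higher ones, and NOP58, NOP56, NCL and PPP1R8 the lower ones. SCARNA16, counted under SEC14L1, also overlaps an exon of SNHG20 on its own strand. The member lay on its host's side in 4 of these 9 pairs and on the other side in 5. Reads from host introns that were not yet spliced and reads of the finished small RNA cannot be told apart here, and 9 members overlapped an exon on their own strand.

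**Figure D5:**
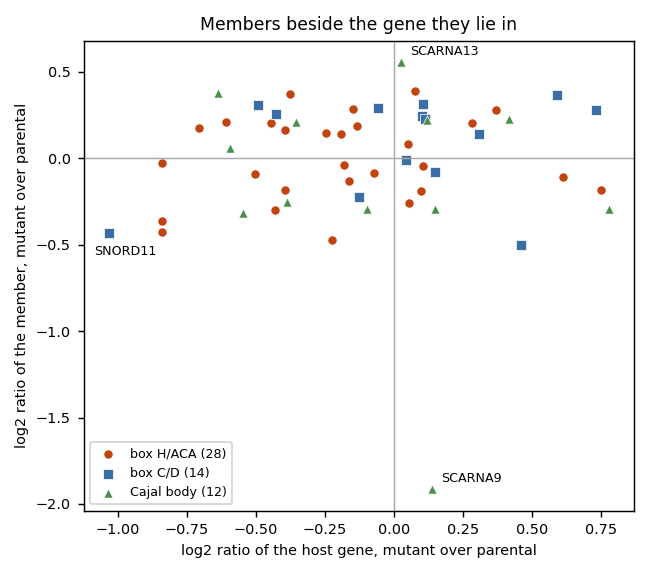
Log2 ratio of 54 members against that of the gene each lies in, both mutant over parental. The points fill all 4 quadrants, with 28 pairs on the same side and 26 on opposite sides, and SCARNA9 lies at -1.91 beside a host at 0.14. Of the 48 members with whole reads, 31 rest on 3 reads or fewer.

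The genes for the proteins of the particles lay lower in mutant libraries for nearly every gene, although 0 of them passed 0.05 after adjustment in the authors' deposited table. Each p here belongs to a gene's most abundant transcript, while levels are sums over transcripts known only as group means, with no SD. All 4 core proteins of box C/D particles were lower, with a median log2 ratio of -0.42, and 3 had p under 0.05 against 12.5% of all genes. NOP58 stood at 39.3 in mutant and 81.5 in parental libraries, a log2 ratio of -1.03 (p = 0.0312 in the authors' deposited table). NOP56 stood at 196 in mutant and 258 in parental libraries (p = 0.0305 in the authors' deposited table), and FBL, the methyltransferase, at 146 in mutant and 199 in parental libraries (p = 0.0338 in the authors' deposited table). SNU13 was at 97.0 in mutant and 114 in parental libraries. The 4 core proteins of box H/ACA particles had a median of -0.47, none with p under 0.05. DKC1, the pseudouridine synthase, stood at 42.3 in mutant and 62.7 in parental libraries, GAR1 at 21.7 in mutant and 30.1 in parental libraries, NHP2 at 75.2 in mutant and 106 in parental libraries, and NOP10 at 68.6 in mutant and 68.7 in parental libraries. NOP10 was therefore even, and the other 3 lower.

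Of 13 measured assembly factors 12 were lower, with a median log2 ratio of -0.30, and 4 had p under 0.05 in the authors' deposited table, against 12.5% of all genes. RPAP3, a cofactor of HSP90 in particle assembly, stood at 9.74 in mutant and 20.8 in parental libraries, and ZNHIT6 at 10.5 in mutant and 17.1 in parental libraries, while BCCIP, at 40.4 in mutant and 45.7 in parental libraries, and ECD, at 7.67 in mutant and 8.65 in parental libraries, differed little in size. All 11 measured genes for release from introns and trimming of ends were lower, median -0.46, beside 11230 lower of all 22534 genes at the same threshold. Of the 11, 4 had p under 0.05 in the authors' deposited table, against 12.5% of all genes. The debranching enzyme DBR1 was at 5.30 in mutant and 8.86 in parental libraries (p = 0.0266 in the authors' deposited table). The exonuclease TOE1 was at 5.04 in mutant and 8.42 in parental libraries (p = 0.0255 in the authors' deposited table). EXOSC10, at 49.7 in mutant and 52.8 in parental libraries, and EXOSC3, at 14.0 in mutant and 16.6 in parental libraries, differed little in size, with p of 0.00200 and 0.00461 in the authors' deposited table.

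Cajal body proteins and the machinery of small nuclear RNA transcription were mixed. Of 21 genes in the Cajal body list, which also holds the nucleolar protein gene TCOF1, 7 were higher and 14 lower, median -0.14. TCOF1 stood at 37.8 in mutant and 52.3 in parental libraries and TGS1, which modifies the cap of small nuclear RNAs, at 4.60 in mutant and 6.07 in parental libraries, the 2 of the 21 with p under 0.05 in the authors' deposited table. GEMIN5 was at 4.19 in mutant and 6.90 in parental libraries and STRAP at 66.4 in mutant and 104 in parental libraries. COIL, the scaffold of the Cajal body, stood at 13.7 in mutant and 11.9 in parental libraries and WRAP53, which brings RNAs there, at 7.75 in mutant and 9.49 in parental libraries. Of 14 genes for small nuclear RNA transcription 6 were higher and 8 lower, median -0.03, and 2 of the lower ones, INTS9 and SNAPC1, had p under 0.05 in the authors' deposited table. Against 12.5% of all genes, the counts of 2 in both lists were near the background. INTS9 was at 6.97 in mutant and 8.70 in parental libraries, SNAPC1 at 4.47 in mutant and 6.08 in parental libraries, SNAPC2 at 8.18 in mutant and 8.40 in parental libraries, and SNAPC4 at 7.52 in mutant and 4.72 in parental libraries. GC content moved with some of these lists, with medians of 45.2% to 50.1% over the 6 protein lists against 49.9% over all genes, and its part in the differences was not tested.

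Other short non-coding RNAs pointed both ways, with 10 of 16 measured higher and 6 lower, a median log2 ratio of 0.16 and none with p under 0.05 in the authors' deposited table. RN7SK, which holds back transcription elongation, averaged 21.6 in mutant and 19.2 in parental libraries and RMRP, the RNA of RNase MRP, 8.60 in mutant and 7.16 in parental libraries. RNU4-1 was at 0.703 in mutant libraries and listed at 0 in parental ones, RNY1 at 0.125 in mutant and 0 in parental libraries, RNU4ATAC at 0 in mutant and 0.231 in parental libraries, and RNY3 at 0.421 in mutant and 0.0576 in parental libraries. TERC, the telomerase RNA, which is itself a box H/ACA RNA, was at 0.0456 in mutant and 8.32e-06 in parental libraries, both below the threshold.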

How the data were processed

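HEK293 cultures gave total RNA by a RNeasy column, which the NEBNext Ultra RNA kit turned into libraries from random primers, per the labels' protocols. Whether poly(A) RNA was selected is not stated there. The submitters' processing notes name bcl2fastq, STAR, Partek and hg38. Versions and annotation are not stated. In this series, the authors' deposited table holds a least-squares mean for each group for 203376 transcripts, named so in the file headers. That value, kept here as a score, is an arithmetic mean of length-scaled abundance plus 1. The authors' deposited table also holds a total count that is not whole, kept as a deposited signal. A p-value, adjusted p-value, ratio and fold change are given too, all kept as deposited scores. No single library was given, so calls are the authors' own and the planned count test was not run.

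Abundance was the mean minus 1, summed over transcripts, and the threshold was 0.1. The deposited p is what comparing log values under equal variances, on 4 degrees of freedom, gives. Means and p together were therefore solved for whole reads in the 6 libraries, for 73.1% of the members' transcripts (tested on simulated data). The simulated reads were whole and used the same values of 1 read and the same p. Shared reads, and counts as high as the highest of SCARNA9, were therefore not tested. A solution was accepted where p agreed within 1e-06 and the group total of abundance times length within 0.02. On that scale 1 read counts 14.1 in the deepest mutant library and 88.2 in the shallowest parental one. Depth was estimated from the value of 1 read in each library, which limits precision to single reads, and read counts carry counting error. Hosts, lengths and sequences came from GENCODE 29 on hg38, where 99.1% of transcript names were found. A host was the gene of highest abundance around a member on its strand, small RNAs left out. Genes were named by a fixed rule: the 6 most abundant of each class, those with extreme log2 ratios at 1 or more, those nearest the threshold, the core proteins, the 4 smallest p-values of each other list, and SNORD13, SNORD118 and TERC. SNORD3B-1, SCARNA14, SCARNA20, SCARNA23, SNORA71D, COIL, WRAP53, RN7SK, RMRP and the hosts were named besides. The members and lists were chosen with earlier results of these data known. Python 3.11.15, pandas 2.3.3, numpy 2.4.6, scipy 1.17.1 and matplotlib 3.10.9 were used.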

Additional observations from a re-analysis of the deposited data

How the results depend on the processing

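Of 109 alternative values 25 moved by more than their tolerance, which was 1 SD over the 3 libraries of a group for medians and sums, a factor of 1.5 for counts and 0.1 for the protein lists. For parental sums that SD is wide. No direction had been called, and the median of each class changed sign under at least 1 alternative. At an abundance of at least 1, 8 members remained, and box H/ACA had a median log2 ratio of -0.20 with 0 higher and 2 lower and sums of 1.95 in mutant and 2.47 in parental libraries. Box C/D then had -0.12 with 1 higher and 1 lower and a mutant sum of 9.39, and Cajal body RNAs 2 higher and 2 lower. Without its most abundant member, box H/ACA had a parental sum of 5.77, box C/D 3.88 in mutant and 3.56 in parental libraries, and Cajal body RNAs 4.91 in mutant and 4.47 in parental libraries. An added 0.1 in place of 1 gave box C/D 0.68, and members with more than 3 whole reads gave -0.26, the midpoint of 2 members, without U3. Without members over an exon of another gene, Cajal body RNAs had a median of 0.13 and 3 lower. The box C/D core proteins by their most abundant transcript had -0.76. The settings on whole reads and on single libraries were chosen after the data had been seen. Leaving out each library in turn gave medians of -0.057 to 0.16 for box H/ACA, 0 to 0.35 for box C/D and -0.30 to -0.023 for Cajal body RNAs over members with whole reads, and -2.37 to -1.13 for SCARNA9. The cause of these shifts was not tested. No paired analysis was possible because the libraries worked back from the means carry no replicate number. Leaving out replicates was not run for the deposited p-values and the protein lists. Among members with whole reads, SCARNA9 had 443 reads and SNORA73B, the next, 37.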
